A study of Mus musculus with 7 samples.

Results

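The cytosolic ribosomal protein genes encode the proteins of the large and small subunits of the ribosome that works in the cytosol. They were taken by name from the count table: every symbol made of Rpl or Rps followed by a number, with an optional a, x or l and a further number, plus Rplp0, Rplp1, Rplp2 and Rpsa, and without the Rps6k kinases and the pseudogenes named -ps. This gave 84 of the 21878 genes in the table, 52 of the large subunit and 32 of the small one. Of these, 81 had enough counts to be tested (49 large, 32 small) among 12997 tested genes in all, while Rpl3l, Rpl10l and Rpl39l did not.

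A ribosome is assembled in the nucleolus from ribosomal RNA and 1 copy of nearly every ribosomal protein, so cells usually make these proteins in matched amounts. Their messenger RNAs are short and very abundant, and most begin with a C followed by an unbroken run of C and T, the terminal oligopyrimidine tract, through which the kinase mTOR controls their translation. In tumours, the transcription factor Myc and the RNA polymerases that make ribosomal RNA and transfer RNA are known to set the output of ribosomes.

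Runs of C and T near the start sites differed between members. RefSeq start-site windows (GRCm38.p6) were found for 64 of the 84 members. The windows below run 5′ to 3′ on the strand of the gene, from 40 bases before the annotated start to 20 after it, and capitals mark the longest run of C and T that overlaps the 15 bases on either side of the start. Of the 12 members with the smallest p between the groups, all with a window are shown, Rpl22 with both of its annotated starts, and Rpl7l1 is added because its fold change was nearest to 0.
Rpl27a, chr7:109519155-109519214, plus strand: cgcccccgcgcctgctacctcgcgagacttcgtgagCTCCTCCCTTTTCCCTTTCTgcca
Rps12, chr10:23787190-23787249, minus strand: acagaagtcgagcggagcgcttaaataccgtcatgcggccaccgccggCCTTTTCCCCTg
Rpl38, chr11:114668540-114668599, plus strand: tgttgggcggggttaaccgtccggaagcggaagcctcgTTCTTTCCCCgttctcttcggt
Rpl22l1, chr3:28805468-28805527, plus strand: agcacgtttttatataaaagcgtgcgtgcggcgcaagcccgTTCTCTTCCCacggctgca
Rpl39, chrX:37085203-37085262, minus strand: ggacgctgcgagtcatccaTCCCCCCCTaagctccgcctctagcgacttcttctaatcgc
Rps7, chr12:28635934-28635993, minus strand: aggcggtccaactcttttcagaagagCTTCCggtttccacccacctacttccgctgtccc
Rps28, chr17:33824543-33824602, minus strand: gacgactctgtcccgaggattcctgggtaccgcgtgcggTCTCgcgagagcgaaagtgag
Rpl22, chr4:152324396-152324455, plus strand: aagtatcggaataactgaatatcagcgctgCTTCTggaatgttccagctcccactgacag
Rpl22, chr4:152325686-152325745, plus strand: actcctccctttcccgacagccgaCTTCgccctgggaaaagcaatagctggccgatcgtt
Rpl7l1, chr17:46782637-46782696, minus strand: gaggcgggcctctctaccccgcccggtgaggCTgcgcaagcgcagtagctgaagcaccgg
The marked run was 20 bases long in Rpl27a, 11 in Rps12, 10 in Rpl38 and Rpl22l1 and 9 in Rpl39, against 5 in Rps7, 4 in Rps28, 5 and 4 at the starts of Rpl22 and 2 in Rpl7l1. It did not always lie at the annotated start: counted from that start it began at position -21 in Rpl39 and at position 9 in Rps12. Long and short runs thus both occur among the members with the smallest p.

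The samples were tumours grown from B16F10, a pigmented mouse melanoma cell line, in female C57BL/6J mice, with 3 control tumours (NC) and 4 tumours of mice that received Zelnorm by mouth at 1.25 mg/kg once every 2 days. Zelnorm is a brand of tegaserod, which partly activates a serotonin receptor. All groups share the graft and the host strain, the age of the mice and the treatment of the controls are not stated, and the graft is a single cell line in a host that keeps its immune system. The libraries carry the names of their columns: NC_5, NC_6 and NC_10, and for Zelnorm MBZ_9, MBZ_11, MBZ_13 and MBZ_15, MBZ being the letters the labels use for that group. The labels do not tie libraries to separate mice, so p-values measure only the spread between these samples, which may be technical.

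The libraries held 16903598 to 19666598 counts. All 12 pigment cell and melanoma markers were detected, and their summed level was 30770 to 34952 CPM (counts scaled to 1000000 per library) in NC and 33892 to 36340 CPM in Zelnorm tumours, so the defining markers of the line were present. Skeletal muscle markers stood high in MBZ_15 (410 CPM summed over 15 genes), MBZ_11 (154 CPM) and NC_5 (48.8 CPM), against 9.86 to 23.4 CPM in the other libraries.

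Ribosomal protein transcripts were lower in the Zelnorm tumours by a small amount, and nearly every gene of the set stood on the same side. They made up 5.15% of all counts in NC_5, 4.68% in NC_6 and 5.36% in NC_10, and 4.48% in MBZ_9, 4.70% in MBZ_11, 4.56% in MBZ_13 and 4.87% in MBZ_15. The group means were 5.07% ± 0.351 (SD, n = 3) and 4.65% ± 0.172 (SD, n = 4). The groups overlapped, because NC_6 lay below MBZ_11 and MBZ_15. In a bulk tumour sample, fewer cells that are rich in these transcripts and fewer transcripts per cell cannot be told apart.

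**Figure D1:**
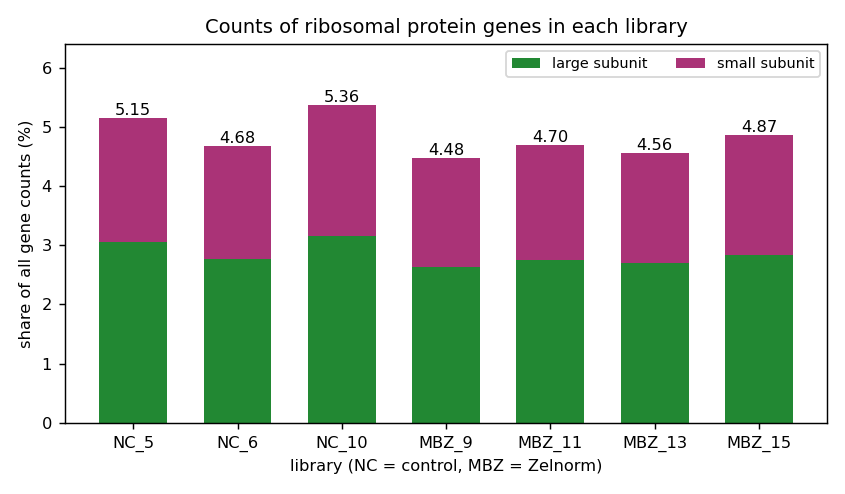
Share of all gene counts (y axis, %) held by ribosomal protein genes in each of 7 libraries (x axis), split into large and small subunit; the number above each bar is the sum. NC_5 and NC_10 stand highest at 5.15% and 5.36%, while NC_6 at 4.68% lies among the Zelnorm libraries.

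Gene by gene, 80 of the 81 tested members had a negative log2 fold change (Zelnorm against NC), against 49.8% of all tested genes. The median was -0.13, that is 8.86% lower, against 0.00 over all tested genes, and the middle part of the set, between its quartiles, ran from -0.19 to -0.09. No member passed the test across all genes (edgeR quasi-likelihood test, Benjamini-Hochberg adjusted p under 0.05), and the smallest adjusted p was 0.118. Of all tested genes 0% were lower and 0.0308% higher by that rule. At an unadjusted p under 0.05, 28 members were lower and 0 higher, where 3.38% of all tested genes were lower and 6.94% higher. DESeq2 called 4 members lower at an adjusted p under 0.05, Rpl39, Rps29, Rpl27a and Rpl38, where 0.285% of all tested genes were lower.

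In 13 members every Zelnorm library lay below every NC library (16.05%), and in 0 every one lay above, where the shares of all tested genes were 4.27% and 5.33%. Rpl22, Rpl27a, Rpl32 and Rpl39 of the large subunit and Rps7, Rps12 and Rps29 of the small one were among them. The count depended on NC_6: without that library it was 50 of 81 (10.1% of all genes), and 43 were lower at an unadjusted p under 0.05 (4.45% of all genes). Without NC_10 that second count was 8 (2.72% of all genes), the median was -0.09 and 75 members were negative. It was 16 without NC_5 (2.37% of all genes) and 16 without MBZ_9 (3.61%). Without MBZ_15 the groups did not overlap in 30 members (6.94% of all genes).

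The libraries did not fall into 2 clean groups. Set against each gene's own mean over the 7 libraries, the median member stood 0.11 higher on the log2 scale in NC_5 and 0.15 higher in NC_10, while it was at -0.02 in NC_6. It was at -0.10 in MBZ_9, -0.04 in MBZ_11, -0.08 in MBZ_13 and 0.02 in MBZ_15. NC_10 was the highest library for 45 members and NC_5 for 30, and MBZ_9 was the lowest for 36 and MBZ_13 for 30. For the 80 tested members other than Rpl32l, which had few counts, the median range was 0.23 on the log2 scale among the 3 NC libraries and 0.20 among the 4 Zelnorm libraries. The fold change was larger than the range among NC libraries for 11 of these 80.

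**Figure D2:**
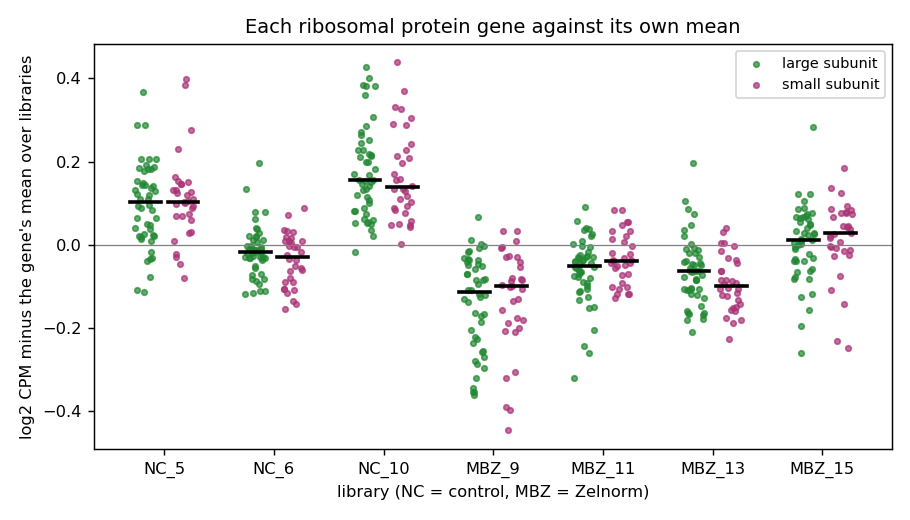
Deviation of each tested member other than Rpl32l from its own mean over 7 libraries (y axis, log2 CPM), by library (x axis) and subunit; black bars are medians. Most points lie above 0 in NC_5 and NC_10 and below it in MBZ_9 and MBZ_13, and the subunits sit at nearly the same height in each library.

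Large and small subunit genes stood at nearly the same distance from the controls. The median log2 fold change was -0.14 over 49 large subunit genes and -0.13 over 32 small subunit genes. At an unadjusted p under 0.05, 17 large subunit genes (34.7%) and 11 small subunit genes (34.4%) were lower. Of all tested genes 3.38% were lower by that rule. Every Zelnorm library lay below every NC library in 8 large (16.3%) and 5 small subunit genes (15.6%), against 4.27% of all tested genes. The counts of the large subunit genes divided by those of the small subunit genes gave 1.45, 1.45 and 1.43 in NC_5, NC_6 and NC_10, and 1.43, 1.41, 1.44 and 1.40 in MBZ_9, MBZ_11, MBZ_13 and MBZ_15. The means were 1.44 ± 0.00878 (SD, n = 3) and 1.42 ± 0.0199 (SD, n = 4), and the groups overlapped.

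**Figure D3:**
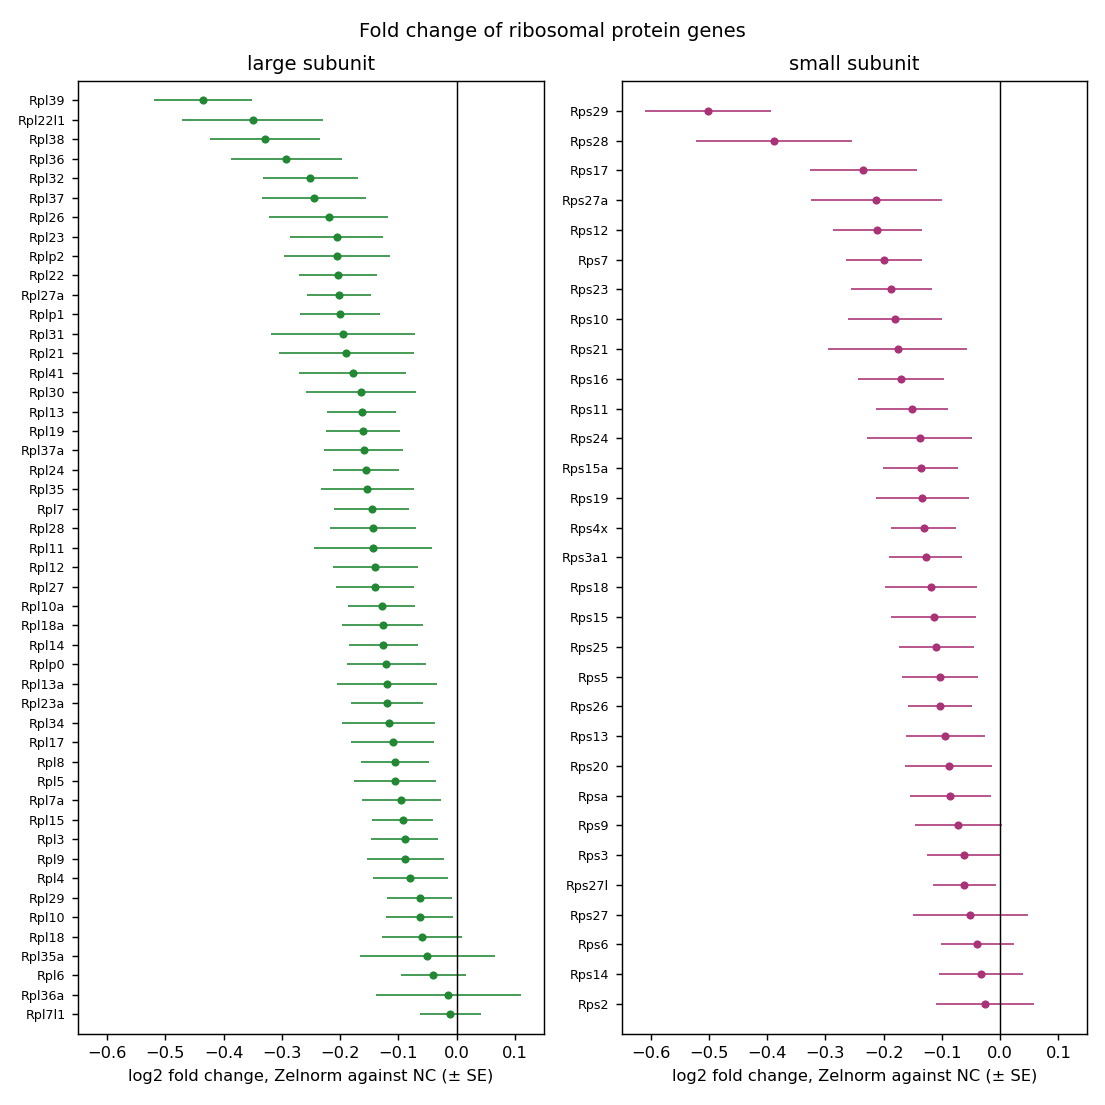
Log2 fold change of Zelnorm against NC with its SE (x axis) for tested large subunit genes (left) and small subunit genes (right), ordered by value; Rpl32l is left out for its few counts, and 1 gene is not reported here. All points lie below 0, from -0.50 for Rps29 to -0.01 for Rpl7l1.

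The members farthest from the controls, Rps29, Rpl39 and Rps28, encode proteins among the shortest in the set. Rpl39 (GRCm38 chromosome X, 37082518 to 37085222) encodes a protein of 51 residues that lines the tunnel through which the new protein leaves the large subunit. Its level was 161 CPM in NC_5, 156 in NC_6 and 191 in NC_10, and 114, 120, 136 and 131 CPM in MBZ_9, MBZ_11, MBZ_13 and MBZ_15. Every Zelnorm library lay below every NC library. The means were 169 ± 18.8 CPM (SD, n = 3) and 125 ± 10.02 CPM (SD, n = 4), which is -0.44 ± 0.08 as a log2 fold change (SE; adjusted p = 0.118, edgeR).

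Rps29 (chromosome 12, 69157722 to 69159186) encodes a zinc-binding protein of the small subunit with 56 residues. It was at 276, 216 and 287 CPM in NC_5, NC_6 and NC_10, and at 155, 201, 197 and 180 CPM in MBZ_9, MBZ_11, MBZ_13 and MBZ_15. These groups did not overlap either, although NC_6 stood closer to MBZ_11 than to the other controls. The log2 fold change was -0.50 ± 0.11 (SE; adjusted p = 0.152, edgeR), the lowest value in the set. RefSeq lists 316 pseudogenes named after 63 of the 84 members, among them 1 each for Rps29 and Rpl39, and the counts are uncertain where reads fit several copies.

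Rpl38 (chromosome 11, 114667818 to 114672333), known from skeletal defects of mice that lack 1 copy, and Rps28 (chromosome 17, 33823036 to 33824562) came next by protein length, with 70 and 69 residues. Rpl38 was at 220, 192 and 252 CPM in NC_5, NC_6 and NC_10 and at 165, 193, 185 and 161 CPM in MBZ_9, MBZ_11, MBZ_13 and MBZ_15. The groups overlapped by a narrow margin, MBZ_11 lying just above NC_6. Rps28 was at 228, 160 and 224 CPM and at 132, 184, 163 and 146 CPM in the same order, with NC_6 inside the Zelnorm range. The log2 fold changes were -0.33 ± 0.09 and -0.39 ± 0.13 (SE; edgeR adjusted p = 0.251 and 0.348). Rpl41 (chromosome 10, 128548110 to 128549168), whose protein of 25 residues is the shortest in the set, had 847 ± 111 CPM (SD, n = 3) and 749 ± 60.4 CPM (SD, n = 4), or -0.18 ± 0.09 on the log2 scale (SE). Rps21 and Rps27, also among the 8 shortest, were at -0.18 ± 0.12 and -0.05 ± 0.10 (SE).

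Among longer members, Rpl27a (chromosome 7, 109519195 to 109522369) had a narrow spread within each group. It was at 580, 553 and 588 CPM in NC_5, NC_6 and NC_10 and at 487, 519, 472 and 518 CPM in MBZ_9, MBZ_11, MBZ_13 and MBZ_15, a gap with no overlap. The log2 fold change was -0.20 ± 0.05 (SE; edgeR adjusted p = 0.221). Rpl32 (chromosome 6, 115805514 to 115808743) went from 840 ± 92.4 CPM (SD, n = 3) in NC to 706 ± 49.2 CPM (SD, n = 4), and Rpl36 (chromosome 17, 56610094 to 56614246) from 489 ± 75.2 to 399 ± 27.2 CPM. Rpl32 separated the groups only narrowly, at 742 CPM in NC_6 against 741 CPM in MBZ_15, while Rpl36 overlapped, with 410 CPM in NC_6 and 440 CPM in MBZ_11. Of the small subunit, Rps7 (chromosome 12, 28630847 to 28635953), which can bind the p53 regulator Mdm2, had 649 ± 53.6 and 565 ± 26.7 CPM. Rps12 (chromosome 10, 23785183 to 23787383) had 339 ± 36.6 and 293 ± 17.5 CPM. Neither of these 2 genes overlapped between the groups, and their log2 fold changes were -0.20 ± 0.07 and -0.21 ± 0.08 (SE; edgeR adjusted p = 0.319 and 0.366).

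**Figure D4:**
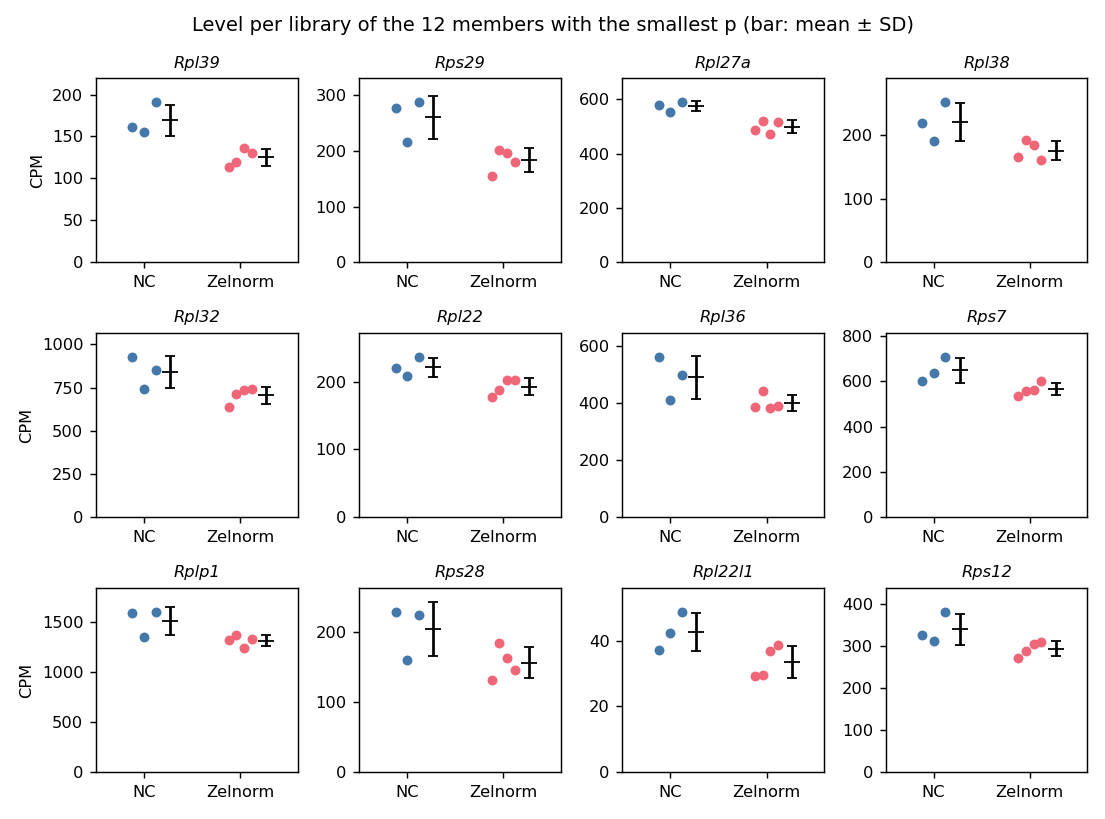
CPM (y axis) in each NC (blue, 3) and Zelnorm (red, 4) library for the 12 members with the smallest p; points within a group follow the library order NC_5, NC_6, NC_10 and MBZ_9, MBZ_11, MBZ_13, MBZ_15, and black bars give the mean ± SD. Rpl39, Rps29, Rpl27a, Rpl32, Rpl22, Rps7 and Rps12 do not overlap between groups, and the other 5 do.

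The acidic stalk of the large subunit recruits the translation factors that use GTP, and its genes Rplp1 and Rplp0 were among the most abundant members. Per kilobase of transcript, Rplp1 stood at 2804 CPM, Rpl8 at 1856 CPM and Rplp0 at 1657 CPM, averaged over 7 libraries, the 3 highest in the set. Rplp2, also of the stalk, was at 432 CPM by the same measure. Rplp1 was at 1511 ± 143 CPM (SD, n = 3) in NC and 1316 ± 51.8 CPM (SD, n = 4) in Zelnorm tumours, with NC_6 (1346 CPM) inside the Zelnorm range of 1244 to 1366 CPM. The log2 fold changes were -0.20 ± 0.07 for Rplp1, -0.21 ± 0.09 for Rplp2 and -0.12 ± 0.07 for Rplp0 (SE). Rpsa, a small subunit protein also known as a laminin receptor precursor, was at 1832 ± 118 and 1727 ± 120 CPM (-0.09 ± 0.07, SE). Rpl8, which lies near the peptidyl transferase centre, was at -0.11 ± 0.06.

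A few members named for their roles outside that choice, after their values were seen, lay within the same range. Rpl5 and Rpl11, which travel with the 5S ribosomal RNA and can bind Mdm2, had log2 fold changes of -0.11 ± 0.07 and -0.14 ± 0.10 (SE). Rps27a, made as a fusion with ubiquitin, was at -0.21 ± 0.11, and Rps6, the substrate of the S6 kinases, at -0.04 ± 0.06. The members nearest to the controls were Rpl7l1 (-0.01 ± 0.05), Rpl36a (-0.01 ± 0.12), Rps2 (-0.03 ± 0.08) and Rps14 (-0.03 ± 0.07). Rps2 had 1600, 1390 and 1647 CPM in NC_5, NC_6 and NC_10 and 1352, 1584, 1461 and 1678 CPM in MBZ_9, MBZ_11, MBZ_13 and MBZ_15, so that the groups lay over each other. The sign for Rpl36a, Rpl7l1, Rps2, Rps14 and Rps27 was positive in some sets of 6 libraries.

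Several members are paralogs, second copies that can take the place of the main gene in some tissues. Rpl22l1 (chromosome 3, 28805508 to 28807424), the paralog of Rpl22, was at 37.2, 42.4 and 48.9 CPM in NC_5, NC_6 and NC_10 and at 29.2, 29.7, 36.8 and 38.7 CPM in MBZ_9, MBZ_11, MBZ_13 and MBZ_15. The groups overlapped through NC_5, and the log2 fold change was -0.35 ± 0.12 (SE; edgeR adjusted p = 0.348). Rpl22 itself separated the groups, at 222 ± 14.1 CPM (SD, n = 3) and 193 ± 12.6 CPM (SD, n = 4). Rps27l, a target of p53, was at 168 ± 5.89 and 161 ± 6.62 CPM, close to its main gene Rps27 at 198 ± 24.8 and 191 ± 20.7 CPM.

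The balance within 3 paralog pairs was compared as the log2 ratio of counts per library. The ratio of Rpl22l1 to Rpl22 was lower in Zelnorm tumours by a mean log2 difference of -0.15 (exact permutation test over 35 splits, 2-sided p = 0.229, Benjamini-Hochberg adjusted over 3 pairs 0.343). Rpl7l1 to Rpl7 differed by 0.14 (exact permutation p = 0.114, adjusted 0.343) and Rps27l to Rps27 by -0.01 (exact permutation p = 0.914, adjusted 0.914). None of the 3 differences passed the threshold, and the smallest p that 3 against 4 libraries allow is 0.0286.

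The other paralogs were near or under the limit of detection, taken as 3 counts or 0.152 to 0.178 CPM, a limit that covers counting error only. Rpl3l, the form of Rpl3 found in heart and skeletal muscle, had 7, 6 and 3 counts in NC_5, NC_6 and NC_10 and 2, 5, 6 and 18 in MBZ_9, MBZ_11, MBZ_13 and MBZ_15. Its highest count was in MBZ_15, the library with the most muscle transcripts, and the part of muscle in this value was not tested. Rpl39l, known from testis, had 0 to 2 counts per library, and Rpl10l, also known from testis, had 0 in all 7, which allows up to 3 counts in each. Rpl32l had 4 to 17 counts and the single positive log2 fold change among the tested members, 0.19 ± 0.51 (SE), which was -0.20 without NC_10.

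Across the set, the fold change was related to the length of the encoded protein. Over the 80 tested members with an annotated protein the Spearman correlation was 0.48 (0.60 over 48 large subunit genes, 0.31 over 32 small subunit genes), a description across genes that share the same libraries. Members under 75 residues, 5 in number, had a median log2 fold change of -0.39, and 4 of them were lower at an unadjusted p under 0.05, against 6.85% of other genes of that length. The medians were -0.14 for 14 members of 75 to 119 residues, -0.15 for 38 of 120 to 199, -0.10 for 20 of 200 to 299 and -0.09 for the 3 longest. Length classes were set after values were seen, and the order of the classes on either side of 120 residues rests on where they meet: with that edge at 125 residues their medians were -0.16 and -0.14. The first class rests on its edge as well: over the 8 shortest proteins, which add Rps21, Rps27 and Rps27l, the median was -0.25.

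Other tested genes had medians from -0.08 over 73 genes under 75 residues and -0.05 over 372 of 75 to 119 residues to 0.01 over 4517 of 600 or more. In each of the 5 length classes that hold members, the members' median lay below that of the other genes.

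The relation was not equal in all libraries. In NC_10 members under 120 residues stood 0.11 further above their own mean than longer members, and in MBZ_9 0.10 further below it. In the other 5 libraries the shorter members minus the longer ones lay between -0.04 and 0.02. For genes outside the set the same difference was 0.08 in NC_10 and -0.07 in MBZ_9. Without NC_10 the correlation over members was 0.24, and without MBZ_9 it was 0.33, while the other libraries left it between 0.45 and 0.55. Without NC_10 the medians of shorter and longer members were both -0.09.

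The run of C and T near the start site, marked in the windows above, reached at least 8 bases in 32 of 64 members (50%), on the strand of the gene, against 20% of 27025 genes with such a window. On the opposite strand the shares were 7.81% and 21.9%. Tested members with such a run had a median log2 fold change of -0.12 (32 genes) and those with shorter runs -0.13 (29 genes), and the ranges overlapped, from -0.44 to 0.19 and from -0.39 to -0.01. The letters CCGGAAG, the core bound by ETS factors such as Gabpa, were searched on both strands of the full 300-base windows, where they can overlap the C and T run. They were in 40.6% of members, 9.93% of all genes and 19.4% of tested genes outside the set. Members with them had a median of -0.15 (25 genes) and those without them -0.13 (36 genes). Searched in the same way, AAGATGG was in 15.6% of members, 7.28% of all genes and 8% of tested genes outside the set. In the same order, CTTTCC was in 51.6%, 29.3% and 30.3%. CACGTG was in 9.38%, 8.09% and 11.7%, and TATAAA in 12.5%, 15.7% and 8.88%. For CACGTG and TATAAA the direction thus depended on the genes the members were set against.

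Of the ribosomal proteins that the naming rule does not reach, 3 are named here with negative values and 1 with a positive one. Fau, which encodes a ribosomal protein fused to a ubiquitin-like protein, had a log2 fold change of -0.15 ± 0.07 (SE). Rack1, the scaffold on the head of the small subunit, was at -0.14 ± 0.07 and Rpl36al at -0.17 ± 0.09. Rps27rt, a retrogene copy of Rps27, was at 17.6 ± 1.33 CPM (SD, n = 3) and 20.6 ± 1.79 CPM (SD, n = 4), 0.22 ± 0.10 (SE). None of these 4 passed the test over all genes (smallest edgeR adjusted p = 0.460, for Fau).

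Other genes of the pathway stood closer to 0 than the members. Of 20 translation factors and related genes with an oligopyrimidine tract, 18 had a negative fold change with a median of -0.06, and at an unadjusted p under 0.05 only Naca, a chaperone at the ribosome exit, was lower (-0.14 ± 0.05, SE), followed by Eef1b2 (-0.11 ± 0.06). Of 51 tested genes for the making of ribosomal RNA and subunit assembly, 29 were negative with a median of -0.01. Riok1 (-0.31 ± 0.13) and Polr1d (-0.16 ± 0.07, outside the naming rule) were lower and Sbds (0.18 ± 0.07) was higher at that threshold. Of 20 tested regulators such as Myc, mTOR and Larp1, the median was -0.03, and Eif4ebp2, a brake on cap-dependent translation, was lower (-0.14 ± 0.05), with Max at 0.15 ± 0.08 next. None of these lists had a gene past the adjusted threshold. The mitochondrial ribosomal protein genes, 77 in number, had a median of -0.05, with 59 negative and 2 lower at an unadjusted p under 0.05. Of all tested genes 3.38% were lower and 6.94% higher at that unadjusted threshold. The share lower was 5% of translation factors, 3.92% of assembly genes, 5% of regulators and 2.6% of mitochondrial genes, each near the 3.38%.

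Markers of several other cell types differed between the groups by their median fold change, but the summed levels of every list given here overlapped between the groups. All 15 pan-leukocyte genes had positive fold changes with a median of 0.67. At an unadjusted p under 0.05, 10 of them were higher, against 6.94% of all tested genes. Their summed level was 598 to 696 CPM in NC and 670 to 935 CPM in Zelnorm libraries. All 12 macrophage genes were positive (median 0.69), with sums of 276 to 588 and 535 to 793 CPM. All 10 fibroblast genes were positive too (median 0.51), with sums of 987 to 2117 and 1573 to 2754 CPM. None of these markers was at 0 in all libraries. All 5 erythroid genes were negative (median -0.59), with sums of 187 to 234 and 96.7 to 226 CPM. Endothelial genes had a median of 0.03, with 3 negative and 5 positive, and sums of 186 to 306 and 214 to 260 CPM. The part of these cells in the lower ribosomal protein level was not tested. With NC_5, MBZ_11 and MBZ_15 left out, which had the highest muscle levels, the median of the members was -0.16 and all 80 tested were negative, while 11 were lower at an unadjusted p under 0.05, where 1.40% of all tested genes were lower.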

How the data were processed

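RNA was sequenced from 3 NC and 4 Zelnorm tumours. The authors deposited raw read counts per gene, made from TruSeq Stranded mRNA libraries per the labels' protocols. Trimmomatic, HISAT2, HTSeq, Cufflinks and DESeq are listed, with the builds GRCm38 and GRCh38, per the submitters' processing notes. Not given in the sources used here: their roles, the strand setting and the annotation release. Columns name the group but not the replicate number of the titles, so libraries were assigned to groups only. No 2 libraries agreed within sampling noise (chi-square per degree of freedom at least 6.53). The table has 2 rows for pseudogenes named after members, where RefSeq lists 316.

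Genes were filtered with filterByExpr, scaled by TMM (factors 0.986 to 1.01) and tested by quasi-likelihood in edgeR 4.0.16 (R 4.3.3), with Benjamini-Hochberg adjustment over 12997 genes. The SE was derived from the F statistic. Alternatives used DESeq2 1.42.0, limma 3.58.1 (voom), other scalings and filters, and left-out libraries. Protein length classes were chosen after values were seen, and their edge was moved once, so both placements are given. Protein lengths came from GENCODE M21 (GRCm38), matched for 83 of 84 members, with the principal isoform, and gene positions from RefSeq GRCm38.p6 for all 84. Figures used matplotlib 3.10.9. Named members were the 12 with the smallest p, the 5 highest and 5 lowest fold changes, the 5 highest levels per coding length, the 8 shortest proteins, paralogs with their main genes, and stalk genes with Rpsa. From other lists the 2 smallest p were named. Members and lists were chosen with earlier results of these data known. Results by name are not reported here for some genes, which stay in all counts and medians.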

Additional observations from a re-analysis of the deposited data

Results flagged for a closer look

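The 29 named members tested were checked for a library that stands apart within the 4 Zelnorm tumours. By Dixon's criterion 3 had one, where chance gives about 1 in 20 for each gene. The members share these libraries, and the count was not tested against chance. Rpl36 was at 440 CPM in MBZ_11 and at 383 to 389 CPM in the other Zelnorm libraries. Rpl8 was at 1617 CPM in MBZ_11 against 1491 to 1507 CPM in the others. Rps4x, the X-linked small subunit gene, was at 910 CPM in MBZ_15 against 823 to 833 CPM in the others.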

How the results depend on the processing

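Members lower at an adjusted p under 0.05 numbered 0 in every fit but DESeq2, which gave 4. Over all tested genes the calls at that threshold (4 by edgeR) were 34 with no filter, 10 with at least 1 CPM in every library, 213 with DESeq2, 21 with a robust edgeR fit, 32 at a threshold of 0.1, 0 without NC_5, MBZ_11 and MBZ_15, and 0 to 161 with 1 library left out, highest without NC_10. Members lower at an unadjusted p under 0.01 were 4, and the share of all genes at that threshold is not given here. Those lower at an unadjusted p under 0.05 (28, against 3.38% of all genes) were 11 without NC_5, MBZ_11 and MBZ_15 (1.40% of all genes). With 1 library left out they were 8 (without NC_10, 2.72% of all genes) to 43 (without NC_6, 4.45%). Members in which every Zelnorm library lay below every NC library numbered 13 (4.27% of all genes). They were 7 with library totals as the only scaling (3.74% of all genes) and 8 with at least 1 CPM in every library (4.40%). Without NC_5, MBZ_11 and MBZ_15 they were 46 (16.5% of all genes). With 1 library left out they were 11 (without MBZ_9, 7.19% of all genes) to 50 (without NC_6, 10.1%). Because the share of all genes also changed, the member counts are not comparable on their own. The median log2 fold change of the members lay between -0.20 and -0.09 with 1 library left out and between -0.16 and -0.13 otherwise. The sign turned in 6 named members, each with 1 library left out: Rpl7l1 ranged from -0.041 to 0.0088, Rpl36a from -0.13 to 0.12, Rps2 from -0.11 to 0.022, Rps14 from -0.10 to 0.018, Rps27 from -0.15 to 0.043 and Rpl32l from -0.20 to 0.24. The cause was not tested. No paired analysis was possible because the replicate numbers given in the titles do not appear in the column names. Fits that left out libraries had fewer samples, and counts of 17 or fewer limit Rpl32l.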

Other observations

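The members also differed among themselves in which control library was highest. Of the 80 tested members other than Rpl32l, 49 were higher in NC_10 than in NC_5. The difference ran from 0.50 on the log2 scale for Rpl21 and 0.44 for Rpl26 to -0.23 for Rps10, genes named after their values were seen. The GC content of the transcript followed the libraries more than the groups. Across members, the Spearman correlation of GC content with the deviation from the gene's mean was 0.46 in NC_5 and 0.52 in MBZ_11, and -0.45 in NC_6, -0.34 in MBZ_15 and -0.30 in MBZ_13. Genes outside the set had the same signs in these 5 libraries, at 0.31, 0.24, -0.33, -0.13 and -0.20. In NC_10 the signs differed, at -0.17 over members and 0.03 over other genes, and in MBZ_9 the values were 0.14 and 0.02. These values describe genes that share libraries. The correlation of GC content with the fold change between groups was -0.03 over members.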
